A study of Danio rerio with 12 samples.

Results

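The comparison described here asks which genes answered dmrt2a overexpression differently in the tailbud piece of the zebrafish embryo (Region 2) and in the somite piece (Region 1). For each gene the transgenic effect, the mean log2 signal of transgenic pieces minus that of control pieces, was taken in each region, and the Region 1 effect was subtracted from the Region 2 effect. A difference above 0 therefore marks a gene that stood higher, relative to its control, in Region 2 than in Region 1. All 12 arrays entered 1 fit, and a difference was called at an adjusted p under 0.05 (limma, Benjamini-Hochberg over 75212 probe sets). The genes were restricted to the 9013, of 20520 named, whose mean log2 signal was above 5 in the control pieces of both regions. This leaves out genes with little signal in a control, but a fall can still be cut short near background. The difference was called for 55 of the 9013 genes (0.61%). It was above 0 for 14 (0.155%) and below 0 for 41 (0.455%). This fit took the pieces of the 2 regions as unpaired. With genotype and replicate number as a block of 6 pools, 4 genes were called.

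The 4 groups were Region 2 transgenic, Region 2 control, Region 1 transgenic and Region 1 control, with 3 arrays each (Affymetrix Zebrafish Gene 1.1 ST). Transgenic embryos were Tg(hsp70:HA-dmrt2a), which carry an HA-tagged dmrt2a under the heat-shock promoter hsp70, so that the transgene is not limited to the tissues where dmrt2a is normally active. They came from an outcross of homozygous fish of a line selected for a single copy of the transgene, of Tubingen background. Controls were wildtype embryos. Region 1 was the microdissected piece that contained the somites, and Region 2 was the piece that contained the tailbud and the left-right organiser. Both genotypes were raised at 28 °C and given the same heat-shock at bud stage, 30 min at 39 °C, so the comparison holds no unheated embryos. Pieces were cut at the 3- to 4-somite stage, in the 30 min that began 2 h after the heat-shock, and each array received RNA of 100 pooled pieces.

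Dmrt2a is a transcription factor with a DM domain that is found in the somites and in the left-right organiser (LRO), the ciliated Kupffer's vesicle of the tailbud. It is known for its part in keeping somite formation symmetric, in left-right asymmetry and in muscle differentiation. In the embryo at this stage the tailbud supplies presomitic mesoderm and posterior neural tissue, whereas the somite level holds segmented muscle precursors, neural plate, lateral mesoderm with blood and vessel precursors, and endoderm. The pieces thus differ in their cell types before any treatment.

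Array medians were 3.29 to 3.32 for Region 2 and 3.47 to 3.49 for Region 1, and arrays of 1 group correlated at 0.988 to 0.992. The tissue labels were set against marker lists. All 7 measured tailbud and presomitic markers were above 5 in Region 2 control pieces, with msgn1 at 9.94 against 5.26 in Region 1 control pieces. Of 7 somite markers 5 were above 5 in Region 1 control pieces, with uncx4.1 at 3.51 in Region 2 and 6.39 in Region 1 control pieces, and myog (4.81) and tbx18 (4.56) were dim there. Of the Kupffer's vesicle markers, dand5 was at 5.54 in Region 2 control pieces and 3.56 in Region 1, while spaw stayed at or below 3.70 in every group. The other 3 were lower in Region 2 than in Region 1 control pieces, sox17 at 5.93 against 6.32, foxj1a at 5.88 against 6.26 and pkd2 at 5.63 against 5.74. The log2 of the summed signal of these markers, 7.78 to 7.89 in Region 2 and 7.81 to 7.93 in Region 1 control pieces, did not separate the regions. Here and below, marker signals were summed on the linear scale, so the brightest genes weigh most. None of 5 blood markers was above 5 in Region 2. Of the head neural markers, egr2b was at 6.92 in Region 1 control pieces and at 3.30 in Region 2 control pieces, while pax2a was at 7.17 and 7.09. In pieces of whole tissue, fewer cells of a type and less RNA per cell cannot be told apart.

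Nearly all genes that passed the test in both regions moved in the same direction. Over the 9013 genes, 530 passed the test in Region 2 (5.88%), 106 higher (1.18%) and 424 lower (4.7%). In Region 1 417 passed (4.63%), 197 higher (2.19%) and 220 lower (2.44%). Both tests were passed by 193 genes, of which 187 moved the same way and 6 in opposite directions. Of the 337 genes called in Region 2 and not in Region 1, the difference itself was called for 23. Of the 224 genes called in Region 1 and not in Region 2, it was called for 15. A call in 1 region and none in the other was thus mostly not accompanied by a called difference. Across the 9013 genes the effects of the regions correlated at r = 0.561, a value that is a description, since genes are not independent and the effects come from 1 set of arrays.

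**Figure D1:**
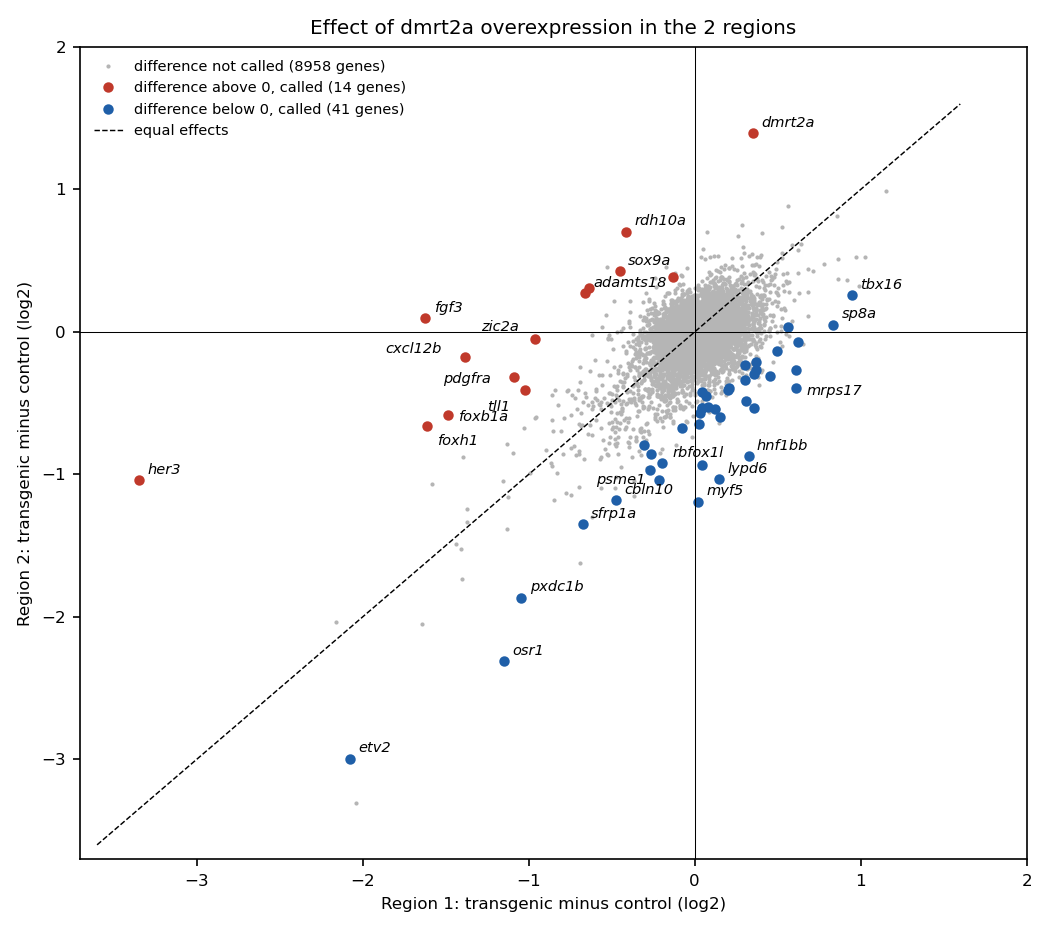
Transgenic effect (transgenic minus control mean log2 signal) in Region 2 on the vertical axis and in Region 1 on the horizontal axis, 1 point for each of 9013 genes. The 14 genes with a called difference above 0 (red) lie above the dashed line of equal effects, with her3 farthest from it, and the 41 below 0 (blue) lie under it, 21 of them lower in Region 2 and not called in Region 1.

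The 55 genes fell into few patterns. The largest held 21 genes that were lower in Region 2 transgenic pieces and not called in Region 1. A further 10 were lower in both regions, 9 were higher in Region 1 only, 6 were lower in Region 1 only, and 5 were lower in Region 2 but higher in Region 1. The remaining 4 were higher in Region 2 only (rdh10a and xylt1), higher in both (dmrt2a), or higher in Region 2 and lower in Region 1 (sox9a). The effect was larger in Region 2 for 32 of the 55 genes and in Region 1 for 23. Differences above 0 came mostly from Region 1, where 11 of 14 genes had their larger effect, and those below 0 mostly from Region 2, with 29 of 41. In Region 2 the arrays of both genotypes did not overlap for 50 of the 55 genes, against 33% of all 9013, and in Region 1 for 46, against 38.1%, counts that the choice of genes by their difference favours. The absolute difference had a median of 0.73, and it was 1 or more, a factor of at least 2 between the effects, for 10 genes.

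**Figure D2:**
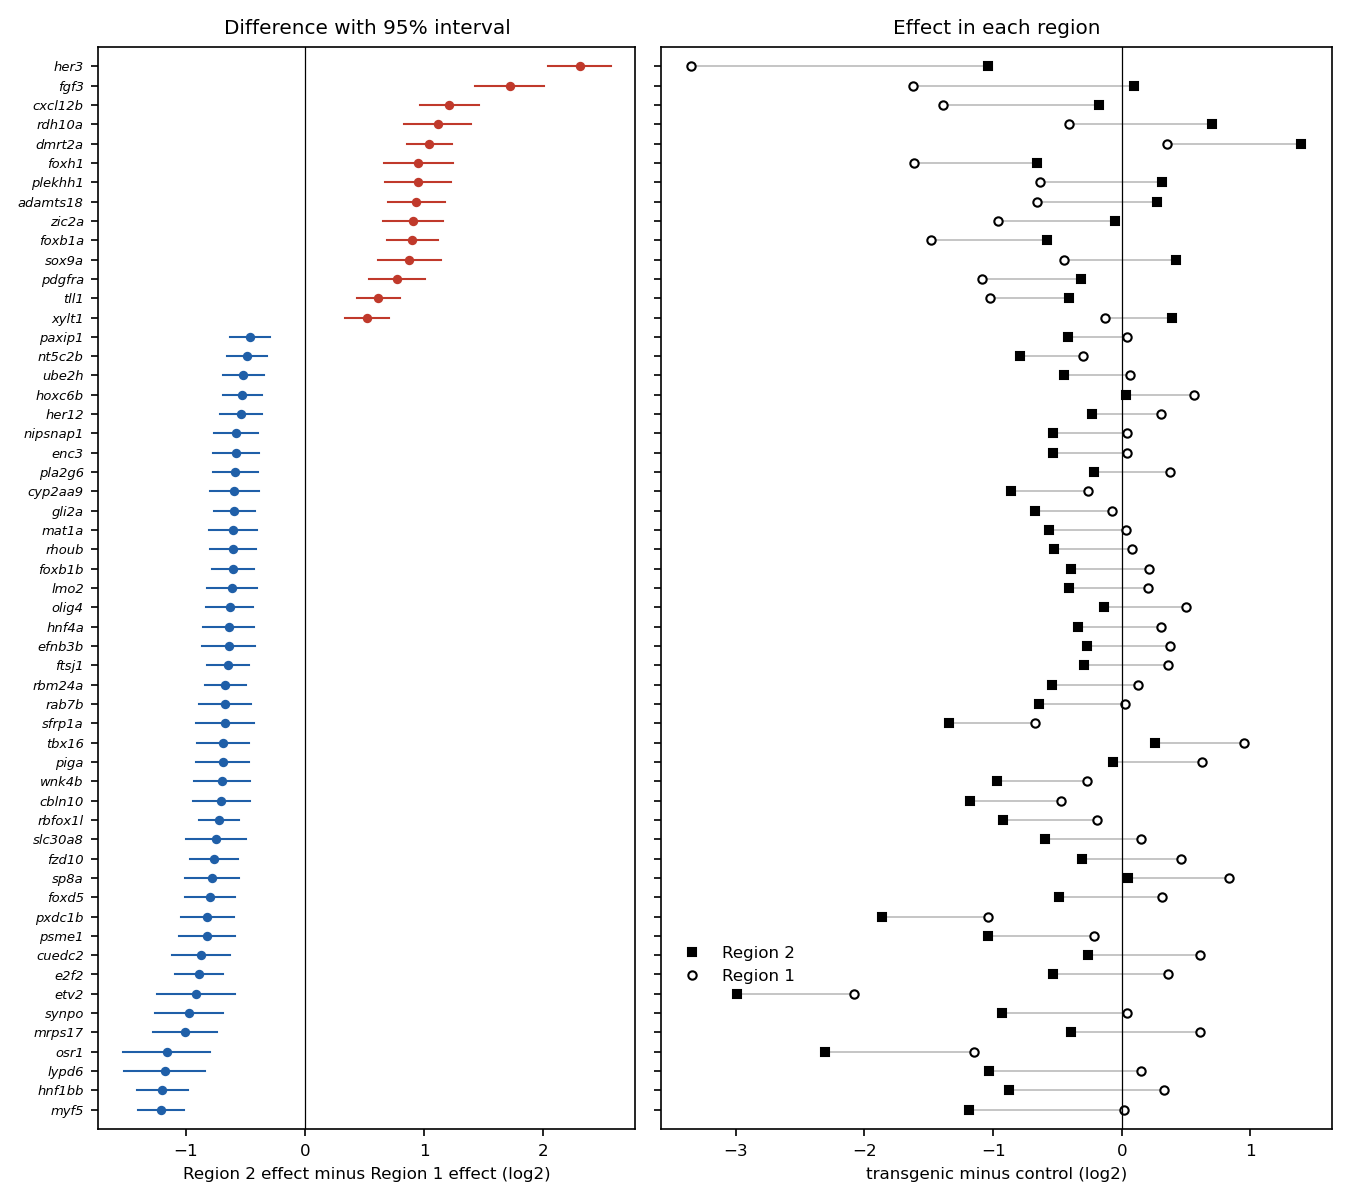
Left, Region 2 effect minus Region 1 effect with its 95% confidence interval for the 55 called genes, red above 0 and blue below. Right, the effect in Region 2 (filled squares) and in Region 1 (open circles) of the same genes, in log2 units, from which it can be read that her3, fgf3 and cxcl12b have the lower effect in Region 1 and myf5, hnf1bb and lypd6 in Region 2.

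The overexpressed gene itself was on the list. Signals of dmrt2a were 8.75, 8.70 and 8.84 in Region 2 transgenic pieces, against 7.36, 7.41 and 7.33 in Region 2 control pieces. In Region 1 they were 8.74, 8.75 and 8.74 in transgenic pieces, against 8.45, 8.36 and 8.35 in control pieces. Transgenic arrays lay above control arrays in both regions, and the transgenic signal was about equal in the 2 pieces, 0.02 higher in Region 2, whereas control pieces of Region 2 stood 1.02 below those of Region 1. The gene thus rose by 1.40 in the tailbud piece and by 0.35 in the somite piece, a difference of 1.04 (95% confidence interval 0.86 to 1.23, adjusted p = 0.000825). Whether the probe set reads the transgene alone, the endogenous transcript or both was not examined. Its paralog dmrt2b was dim in all groups (means of 2.79 to 3.40), and its difference of -0.10 (-0.60 to 0.39) did not pass the test.

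The gene with the largest difference was her3, a Hes-related repressor that in zebrafish keeps neurogenesis out of the zones between proneural clusters. It was at 7.20, 7.18 and 7.43 in Region 2 transgenic pieces, against 8.25, 8.38 and 8.30 in Region 2 control pieces. In Region 1 the signals were 4.47, 4.38 and 4.26 in transgenic pieces, against 7.70, 7.67 and 7.78 in control pieces. No transgenic array overlapped a control array, and the Region 1 transgenic arrays stood alone, more than 2 log2 units under every other array. The gene was 2.06-fold lower in the tailbud piece and 10.2-fold lower in the somite piece, a difference of 2.31 (2.04 to 2.57, adjusted p = 4.8e-05). In control pieces her3 stood 0.59 higher in Region 2, and the control arrays of the 2 regions did not overlap. Its second probe set was near background.

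Beside her3, 3 other genes of the neural plate fell further in Region 1 or there alone. fgf3, a secreted growth factor made by the hindbrain, was at 5.66, 5.73 and 5.84 in Region 2 transgenic pieces and at 5.71, 5.51 and 5.73 in Region 2 control pieces, which overlapped. The Region 1 signals were 4.89, 4.88 and 4.92 in transgenic pieces, against 6.44, 6.70 and 6.41 in control pieces, with all transgenic arrays below. The difference was 1.72 (1.43 to 2.01, adjusted p = 0.000666), with an effect of 0.10 in Region 2 and a 3.08-fold fall in Region 1. The forkhead factor foxb1a, a gene of the early neural plate, fell in both regions, by 0.58 in Region 2 and by 1.49 in Region 1 (difference 0.90, adjusted p = 0.0057), and its second probe set gave the same difference of 0.90 and was called too. The zinc finger factor zic2a, of the neural plate and its border, was at 5.60 to 5.75 in Region 2 transgenic pieces and 5.59 to 5.87 in control pieces, and at 5.84 to 5.98 in Region 1 transgenic pieces and 6.86 to 6.92 in control pieces. It fell by 0.96 in Region 1 only, with an effect of -0.05 in Region 2 (difference 0.91, adjusted p = 0.0151).

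Neural genes did not all move this way. Among 24 measured genes of neural progenitors and neurogenesis with both controls above 5, the difference was above 0 for 3 (her3, foxb1a and zic2a) and below 0 for 2 (foxb1b and olig4). The hindbrain list of 25 had 2 called above 0 (her3 and fgf3) and 2 below (hnf1bb and sp8a). The shares over all 9013 genes were 0.155% above 0 and 0.455% below. These and later lists were chosen with earlier results of these data known and share members. Their counts beside the shares over all genes are thus a description and no independent test. The transcription factor sp8a was at 6.07, 5.99 and 5.97 in Region 2 transgenic pieces and at 5.95, 5.97 and 5.95 in control pieces. Region 1 transgenic pieces read 6.90, 6.87 and 6.91, against 5.90, 6.18 and 6.09 in Region 1 control pieces. Its rise of 0.83 was thus seen in Region 1 only, with a difference of -0.78 (adjusted p = 0.018). Likewise olig4, a basic helix-loop-helix factor of the neural plate, rose by 0.50 in Region 1 and had an effect of -0.14 in Region 2. Head neural markers were lower in sum in transgenic pieces of both regions. The log2 of their summed signal was 7.95 to 8.04 in Region 2 transgenic pieces against 8.204 to 8.247 in control pieces. In Region 1 it was 8.62 to 8.71 in transgenic pieces against 8.75 to 8.83 in control pieces. Of the 8 measured, 4 or 5 were above 5 in control pieces, and six3a was near background at 1.94 to 2.11. None of the 4 with both controls above 5 passed the test in either region. otx2b, dim at 2.03 to 4.00, fell by 1.06 in Region 2 and by 0.41 in Region 1. The part of these markers in the result was not tested.

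Of 44 genes for chemokines, growth factors and guidance signals, 4 rose and 12 fell in Region 2, and 8 rose and 12 fell in Region 1. The shares over all 9013 genes were 1.18% and 4.7% in Region 2 and 2.19% and 2.44% in Region 1. The difference was called above 0 for cxcl12b and pdgfra and below 0 for efnb3b, against 0.155% above and 0.455% below over all genes. cxcl12b, a chemokine whose receptor Cxcr4 guides migrating mesoderm, endoderm and vessel cells, was at 7.53, 7.46 and 7.59 in Region 2 transgenic pieces and at 7.57, 7.88 and 7.66 in Region 2 control pieces. Signals in Region 1 were 7.76, 7.75 and 7.72 in transgenic pieces, against 9.07, 9.16 and 9.16 in control pieces. The Region 2 arrays overlapped, and in Region 1 the transgenic signal fell to the level of Region 2. The fall of 1.39 in Region 1 and the effect of -0.17 in Region 2 differed by 1.21 (0.96 to 1.46, adjusted p = 0.00194). The growth factor receptor gene pdgfra, which serves migrating crest and heart precursors, fell by 1.09 in Region 1 and had an effect of -0.31 in Region 2 (difference 0.78, adjusted p = 0.0214). A second probe set of pdgfra gave a difference of 0.33 and was not called.

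foxh1, the forkhead partner of Smad proteins in Nodal signalling, was lower in both pieces. It was at 5.09, 5.00 and 5.22 in Region 2 transgenic pieces, against 5.60, 5.86 and 5.84 in Region 2 control pieces. In Region 1 the signals were 5.21, 5.17 and 5.28 in transgenic pieces, against 6.72, 6.84 and 6.94 in control pieces. Transgenic arrays of both regions met at about the same level near 5, and foxh1 fell by 0.66 in Region 2 and by 1.61 in Region 1 (difference 0.95, adjusted p = 0.0212). Of the 16 genes on the left-right list with both controls above 5, the difference was called above 0 for foxh1 and dmrt2a. The latter is the overexpressed gene itself. Below 0 it was called for tbx16. None of 22 genes of motile cilia was called, which at a share of 0.61% over all genes does not set that list apart.

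The enzyme genes tll1, adamts18 and xylt1 also had a difference above 0. tll1, a tolloid-like metalloprotease that cleaves the Bmp antagonist Chordin, was at 7.99, 8.02 and 8.01 in Region 2 transgenic pieces, against 8.44, 8.46 and 8.35 in control pieces. In Region 1 it was at 5.57, 5.49 and 5.50 in transgenic pieces, against 6.52, 6.51 and 6.59 in control pieces. All transgenic arrays lay below their controls, and the fall was 0.41 in Region 2 and 1.02 in Region 1 (difference 0.62, adjusted p = 0.018). adamts18, a secreted metalloprotease, fell by 0.66 in Region 1 and had an effect of 0.27 in Region 2 (difference 0.93, adjusted p = 0.00941). xylt1, the xylosyltransferase that starts glycosaminoglycan chains on proteoglycans, rose by 0.39 in Region 2 and had an effect of -0.13 in Region 1 (difference 0.52, adjusted p = 0.0454). None of 17 genes on the list of heparan sulfate enzymes and proteoglycans was called, which at a share of 0.61% over all genes does not set that list apart.

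A few genes rose in Region 2 where they fell, or had an effect below 0, in Region 1. rdh10a, a retinol dehydrogenase that makes the first step of retinoic acid synthesis, was at 5.69, 5.81 and 5.91 in Region 2 transgenic pieces, against 5.25, 5.11 and 4.94 in control pieces. The Region 1 signals were 7.32, 7.36 and 7.19 in transgenic pieces, against 7.67, 7.70 and 7.74 in control pieces. The arrays did not overlap in either region, and the sign was opposite. The effect was 0.70 in Region 2 and -0.41 in Region 1, of which that in Region 1 missed the threshold (adjusted p = 0.0537), and the difference was 1.11 (0.83 to 1.40, adjusted p = 0.0094). sox9a, a transcription factor of crest, cartilage and somites, was at 6.42 to 6.68 in Region 2 transgenic pieces, against 6.09 to 6.23 in control pieces. Region 1 transgenic pieces read 7.48, 7.31 and 7.52, against 7.87, 7.86 and 7.93 in Region 1 control pieces. It alone of the 55 genes passed the test upward in Region 2 (0.42, adjusted p = 0.0319) and downward in Region 1 (-0.45, adjusted p = 0.0258). plekhh1, a protein with a pleckstrin homology domain, fell by 0.64 in Region 1 with an effect of 0.31 in Region 2.

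**Figure D3:**
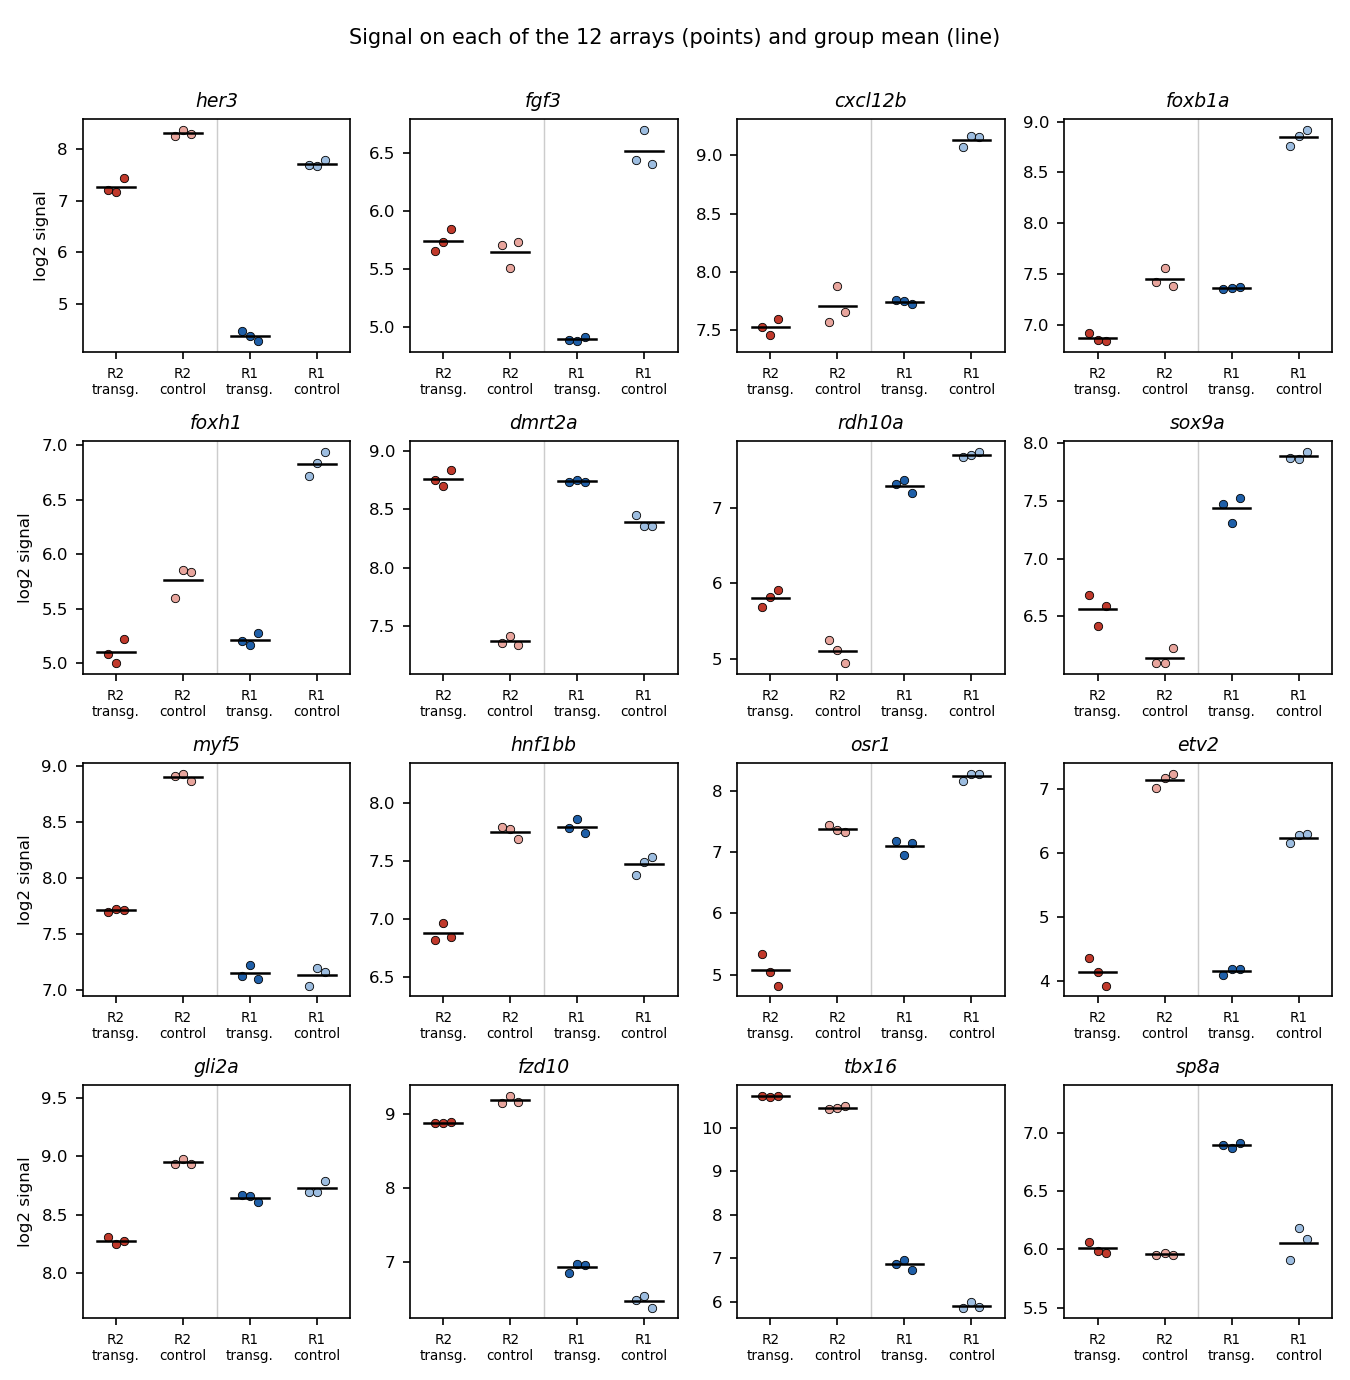
Log2 signal of 16 of the called genes on each of the 12 arrays (points) with the group mean (line), in the order Region 2 (R2) transgenic, Region 2 control, Region 1 (R1) transgenic and Region 1 control. For her3, fgf3, cxcl12b, foxb1a and foxh1 the wider step is in Region 1, and for myf5, osr1, etv2 and gli2a it is in Region 2. The vertical scale differs between genes and spans at least 2 log2 units.

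Among the genes with a difference below 0, the smallest adjusted p belonged to the muscle regulator myf5, which starts the muscle programme in presomitic and somitic mesoderm. It was at 7.69, 7.72 and 7.71 in Region 2 transgenic pieces, against 8.90, 8.93 and 8.87 in Region 2 control pieces. Signals in Region 1 were 7.12, 7.22 and 7.10 in transgenic pieces and 7.04, 7.19 and 7.15 in control pieces. The groups overlapped in Region 1 and were more than 1 log2 unit apart in Region 2. The gene was 2.28-fold lower in Region 2, with an effect of 0.02 in Region 1, and the difference was -1.21 (-1.40 to -1.02, adjusted p = 0.000441). Genes for RNA-binding proteins of muscle showed the same order. rbfox1l, a splicing factor of muscle, fell by 0.92 in Region 2 and had an effect of -0.20 in Region 1 (difference -0.73, adjusted p = 0.00491). rbm24a, of muscle and heart, fell by 0.54 in Region 2 and had an effect of 0.12 in Region 1 (difference -0.67, adjusted p = 0.0094). myod1, which acts beside myf5, fell by 0.59 in Region 2 and had an effect of -0.18 in Region 1, and its difference of -0.42 (-0.63 to -0.20) was not called (adjusted p = 0.165). Of 18 muscle genes with both controls above 5, only myf5 was called, against 0.61% of all 9013 genes. rbfox1l and rbm24a stood on no list. The log2 values of the summed somite markers were 9.59 to 9.69 in Region 2 transgenic pieces and 9.49 to 9.61 in control pieces, which overlapped. In Region 1 they were 10.385 to 10.471 in transgenic pieces and 10.326 to 10.362 in control pieces, which did not. Of the 3 markers with both controls above 5, meox1 rose and pax3a fell in both regions. The changes were 0.37 and -0.50 in Region 2 and 0.25 and -0.53 in Region 1.

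Some regulators of intermediate mesoderm, kidney and gut also had a difference below 0. hnf1bb, a homeodomain factor of hindbrain, pronephros and endoderm, was at 6.82, 6.97 and 6.85 in Region 2 transgenic pieces, against 7.79, 7.78 and 7.69 in control pieces. In Region 1 it was at 7.78, 7.86 and 7.74 in transgenic pieces, against 7.38, 7.49 and 7.54 in control pieces. It passed the test in opposite directions, a fall of 0.87 in Region 2 and a rise of 0.32 in Region 1 (difference -1.20, -1.41 to -0.98, adjusted p = 0.000825).

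osr1, a zinc finger factor of intermediate and lateral mesoderm, was at 5.34, 5.05 and 4.82 in Region 2 transgenic pieces, against 7.44, 7.37 and 7.34 in control pieces. The Region 1 signals were 7.18, 6.95 and 7.15 in transgenic pieces, against 8.16, 8.28 and 8.28 in control pieces. It was 4.96-fold lower in the tailbud piece and 2.21-fold lower in the somite piece, a difference of -1.16 (-1.53 to -0.79, adjusted p = 0.028). hnf4a, a nuclear receptor of liver, gut and the yolk syncytial layer, fell by 0.34 in Region 2 with an effect of 0.30 in Region 1 (difference -0.64, adjusted p = 0.0344). These 3 were the called genes of the 12 on the pronephros and intermediate mesoderm list, all below 0, against 0.455% of all 9013 genes. Of the 9 genes on the endoderm and gut list, hnf1bb and hnf4a were called below 0 and cxcl12b above 0. The median difference of that list was 0.15.

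Transcripts of the yolk syncytial layer, the nuclear layer that feeds on the yolk, fell more often in Region 2 than in Region 1. Of 24 such genes with both controls above 5, 12 fell and 0 rose in Region 2, while 3 fell and 2 rose in Region 1. The shares over all 9013 genes were 4.7% and 1.18% in Region 2, and 2.44% and 2.19% in Region 1. The median difference was -0.24 against -0.03 over all 9013 genes. The difference was called for 1 of the 24, hnf4a, against 0.61% of all genes. The log2 of the summed signal of 7 marker genes of that layer was 12.23 to 12.27 in Region 2 transgenic pieces against 12.41 to 12.51 in control pieces. In Region 1 it was 12.25 to 12.29 in transgenic pieces against 12.31 to 12.38 in control pieces. The apolipoprotein gene apobb.1 fell by 0.35 in Region 2 with an effect of -0.22 in Region 1, while ttr, also a marker, was near background (2.09 to 2.45). Their part in the differences was not tested. Among genes on no list, mat1a, which makes S-adenosylmethionine in the liver, the zinc transporter gene slc30a8 and the cytochrome P450 gene cyp2aa9 also fell in Region 2, by 0.57, 0.60 and 0.86, with effects of 0.03, 0.15 and -0.26 in Region 1.

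Genes of the vessel and blood lineage were called too. etv2 (etsrp in the annotation), the ETS factor that specifies endothelial cells, was at 4.35, 4.14 and 3.92 in Region 2 transgenic pieces, against 7.01, 7.16 and 7.23 in control pieces. Region 1 transgenic pieces read 4.09, 4.19 and 4.18, against 6.14, 6.27 and 6.29 in Region 1 control pieces. Transgenic arrays of both regions reached the same low level, -0.02 apart, while the control level was 0.90 higher in Region 2. The gene fell by 2.99 in Region 2 and by 2.08 in Region 1. The difference was -0.92 (-1.24 to -0.59), close to the threshold (adjusted p = 0.0462). lmo2, a LIM-only partner of Tal1 in blood and vessel precursors, fell by 0.41 in Region 2 with an effect of 0.20 in Region 1 (difference -0.61, adjusted p = 0.0379). The other probe sets of lmo2, both dim, gave -0.22 and 0.35. tal1 itself was 2.46-fold lower in Region 2 and 1.53-fold lower in Region 1, and its difference of -0.68 (-0.94 to -0.43) just missed the threshold (adjusted p = 0.0556). On the list of angioblast and endothelial genes, 2 of 17 were called, both below 0, against 0.455% of all 9013 genes. The median difference of the list was -0.19, against -0.03 over all genes.

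Members of the Wnt and Hedgehog pathways were also called. fzd10, a Wnt receptor, was at 8.87, 8.87 and 8.88 in Region 2 transgenic pieces, against 9.15, 9.24 and 9.16 in control pieces. Signals in Region 1 were 6.85, 6.97 and 6.96 in transgenic pieces, against 6.49, 6.54 and 6.38 in control pieces. A small fall of 0.31 in Region 2 thus stood beside a rise of 0.46 in Region 1, both past the test (difference -0.76, adjusted p = 0.0107), and a second probe set gave -0.76 as well. sfrp1a, a secreted protein that binds Wnt ligands, fell by 1.35 in Region 2 and by 0.67 in Region 1 (difference -0.67, adjusted p = 0.0471). lypd6, which in zebrafish promotes Wnt receptor signalling, fell by 1.03 in Region 2 with an effect of 0.15 in Region 1 (difference -1.18, adjusted p = 0.018).

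gli2a, a transcription factor that carries Hedgehog signals to the genome, was at 8.31, 8.24 and 8.27 in Region 2 transgenic pieces, against 8.94, 8.97 and 8.94 in control pieces. In Region 1 it was at 8.67, 8.66 and 8.61 in transgenic pieces, against 8.69, 8.70 and 8.78 in control pieces. It fell by 0.67 in Region 2, with an effect of -0.08 in Region 1 (difference -0.60, adjusted p = 0.018). The 2 Wnt genes on the list of 35 (fzd10 and sfrp1a) and the 1 of 24 on the Hedgehog list were below 0, while 1 gene each was above 0 on the Fgf list of 24 (fgf3), the retinoic acid list of 18 (rdh10a) and the Bmp list of 36 (tll1). Over all 9013 genes 0.455% were called below 0 and 0.155% above.

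A few genes of the posterior body rose in Region 1, where their control level was lower than in Region 2. tbx16, the T-box factor of presomitic mesoderm, was at 10.72, 10.70 and 10.73 in Region 2 transgenic pieces, against 10.43, 10.46 and 10.49 in Region 2 control pieces. The Region 1 signals were 6.87, 6.97 and 6.74 in transgenic pieces, against 5.87, 5.99 and 5.88 in control pieces. The rise of 0.95 in Region 1 passed the test and the effect of 0.26 in Region 2 did not, and the difference was -0.69 (-0.91 to -0.47, adjusted p = 0.0273). Dimmer probe sets of tbx16 gave differences of 0.28 and 0.31, of the other sign and not called. her12, a Hes-related gene of the tailbud, rose by 0.31 in Region 1 with an effect of -0.23 in Region 2 (difference -0.54, adjusted p = 0.0317). The Hox gene hoxc6b rose by 0.56 in Region 1 with an effect of 0.03 in Region 2 (difference -0.53, adjusted p = 0.0259).

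Lists of related genes were mixed. Of 27 presomitic mesoderm and tailbud genes, 3 rose and 2 fell in Region 2, and 8 rose and 4 fell in Region 1. Of 28 genes of the segmentation clock and Notch pathway, 4 rose and 2 fell in Region 2, and 9 rose and 0 fell in Region 1. Of 18 Hox genes, 1 rose and 0 fell in Region 2, and 5 rose and 1 fell in Region 1. Over all 9013 genes 1.18% rose and 4.7% fell in Region 2, and 2.19% rose and 2.44% fell in Region 1. The difference was called for 1 gene of each list, against 0.61% of all genes. her7 rose by 0.58 and msgn1 by 0.53 in Region 1, with effects of 0.08 and 0.10 in Region 2, but their differences were not called (adjusted p = 0.0584 and 0.123). The log2 of the summed signal of 7 tailbud and presomitic markers, tbx16 included, was 12.74 to 12.78 in Region 2 transgenic pieces against 12.54 to 12.61 in control pieces. In Region 1 it was 10.28 to 10.36 in transgenic pieces against 9.98 to 10.07 in control pieces. Of these markers 6 were above 5 in Region 1 control pieces, tbx16l being at 4.91. The part of these markers in the rises was not tested.

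foxd5, a forkhead gene of tailbud and neural plate, fell by 0.49 in Region 2 and had an effect of 0.31 in Region 1 (difference -0.80, adjusted p = 0.011), its second and dim probe set giving -0.06. efnb3b, an ephrin that guides cells and axons through Eph receptors, rose by 0.37 in Region 1 with an effect of -0.27 in Region 2.

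Several genes of basic cell functions moved in opposite directions. e2f2, a transcription factor of the cell cycle, was at 6.89, 6.83 and 6.98 in Region 2 transgenic pieces, against 7.39, 7.49 and 7.41 in control pieces. Region 1 transgenic pieces read 7.06, 7.16 and 7.07, against 6.69, 6.77 and 6.75 in Region 1 control pieces. It fell by 0.53 in Region 2 and rose by 0.36 in Region 1 (difference -0.89, adjusted p = 0.00375), while none of 79 genes on the cell cycle and DNA replication list was called, near the share of 0.61% over all genes. mrps17, of the small subunit of the mitochondrial ribosome, fell by 0.40 in Region 2 and rose by 0.61 in Region 1 (difference -1.01, adjusted p = 0.0118). ftsj1, a tRNA methyltransferase, fell by 0.29 in Region 2 and rose by 0.36 in Region 1 (difference -0.65, adjusted p = 0.0129). With hnf1bb and fzd10 these made up the 5 genes that fell in Region 2 and rose in Region 1.

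pxdc1b, a gene for a protein with a PX domain, fell in both regions and more in Region 2. It was at 6.66, 6.59 and 6.85 in Region 2 transgenic pieces, against 8.57, 8.56 and 8.56 in control pieces. Signals in Region 1 were 6.76, 6.74 and 6.74 in transgenic pieces, against 7.79, 7.84 and 7.74 in control pieces. As with etv2, the transgenic arrays of both regions ended near the same level (-0.05 apart), from control levels 0.77 apart, and pxdc1b fell by 1.86 in Region 2 and by 1.04 in Region 1 (difference -0.82, adjusted p = 0.0129). psme1, a subunit of the proteasome activator, fell by 1.04 in Region 2 with an effect of -0.22 in Region 1, from a Region 1 control level of only 5.05. synpo, an actin-associated protein, fell by 0.93 in Region 2 with an effect of 0.04 in Region 1. cuedc2, a protein with a ubiquitin-binding CUE domain, rose by 0.61 in Region 1 with an effect of -0.27 in Region 2.

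The other 12 called genes differed by -0.46 to -0.70. paxip1, ube2h, nipsnap1, enc3, rab7b, rhoub and wnk4b were lower in Region 2 only, by 0.42 to 0.97. cbln10 and nt5c2b were lower in both regions, by 1.18 and 0.79 in Region 2 and by 0.47 and 0.30 in Region 1. foxb1b was lower in Region 2 only, by 0.39. piga, of the synthesis of glycolipid membrane anchors, and the phospholipase gene pla2g6 were higher in Region 1 only, by 0.62 and 0.37.

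**Figure D4:**
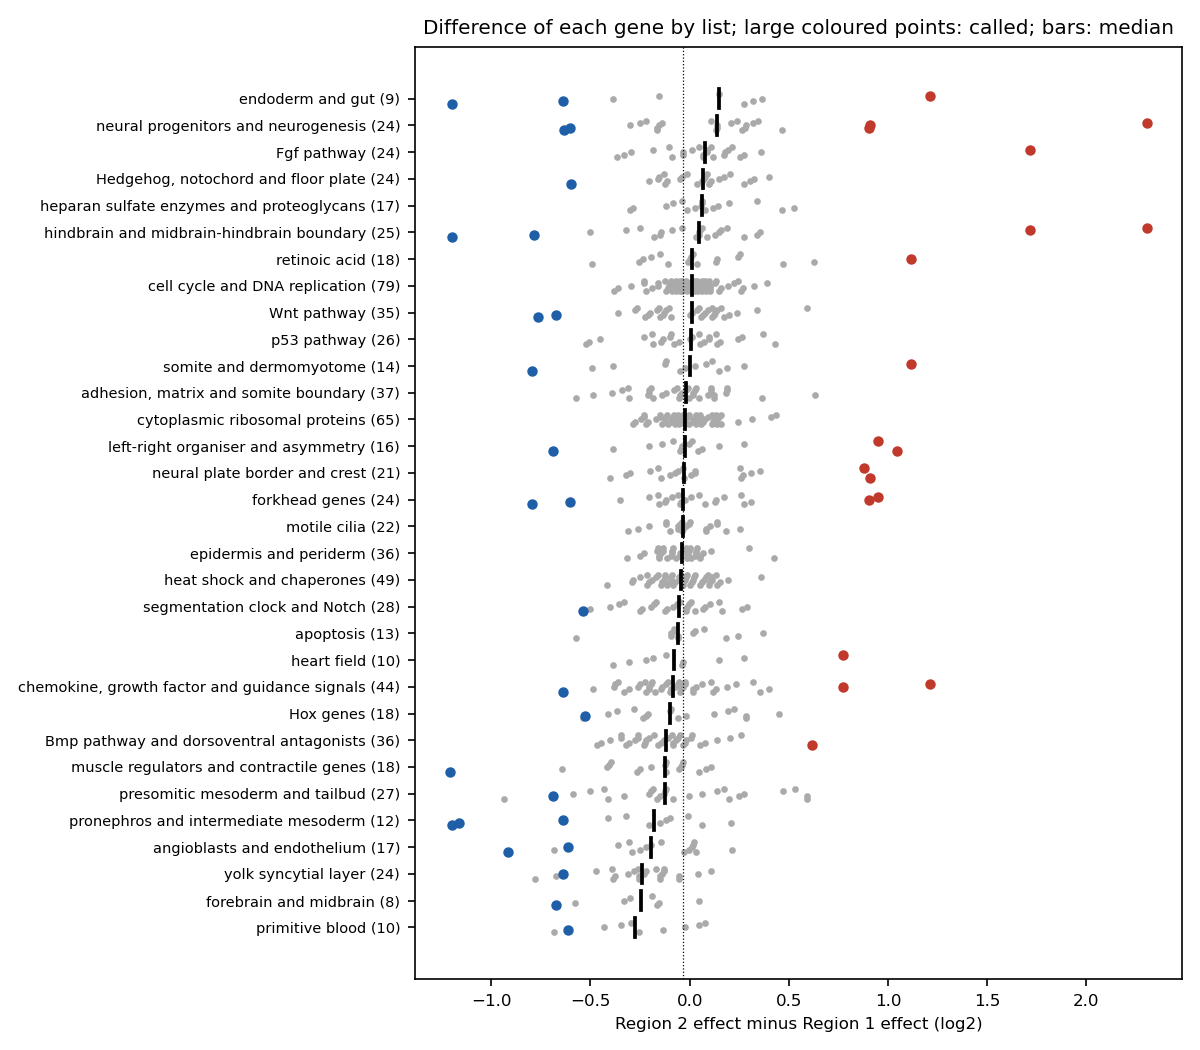
Region 2 effect minus Region 1 effect (log2) of every gene with both controls above 5, by gene list (lists of at least 8 such genes), with the number of such genes in parentheses. Large coloured points are genes with a called difference (red above 0, blue below 0), black bars are list medians and the dotted line is the median over all 9013 genes (-0.03). A gene can stand on several lists. Called genes were not always the outermost of a list. The lowest difference was -0.94 on the presomitic mesoderm and tailbud list, against -0.69 for the called tbx16. On the yolk syncytial layer list it was -0.78, against -0.64 for the called hnf4a.

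By list, called genes were few and spread over many functions. Of the 55 genes, 29 stood on at least 1 of the 35 lists and 26 on none. None of 36 epidermal, 49 heat shock and chaperone, 37 adhesion and matrix, 26 p53 pathway and 65 ribosomal protein genes was called, which at a share of 0.61% over all genes sets none of these lists apart. Of 24 genes on the qPCR list with both controls above 5, 12 were called, 7 above 0 and 5 below. That list was chosen on these samples and is not independent of the arrays. Within it several genes fell by about the same amount in both regions. The adenosine receptor gene adora2b fell by 2.04 in Region 2 and by 2.16 in Region 1, a difference of 0.12 with an interval of -0.21 to 0.45. foxj1b, a forkhead regulator of motile cilia, fell by 1.52 in Region 2 and by 1.41 in Region 1 (difference -0.12, -0.39 to 0.15). foxc1b, a forkhead gene of paraxial mesoderm, fell by 0.48 in Region 2 and by 0.46 in Region 1 (difference -0.02, -0.29 to 0.24).

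For 20 of the 55 genes a named gene was measured whose symbol differs in the last letter, a or b, and 15 of these partners had both controls above 5. In this set the sole pair called in both members was foxb1a and foxb1b, with opposite signs. foxb1b was at 7.89, 7.92 and 7.84 in Region 2 transgenic pieces, against 8.32, 8.24 and 8.28 in control pieces. In Region 1 it was at 7.64, 7.68 and 7.67 in transgenic pieces, against 7.44, 7.51 and 7.41 in control pieces. Its difference of -0.60 (-0.78 to -0.43) thus stood against 0.90 (0.69 to 1.12) for foxb1a, and the intervals did not meet. For other pairs the contrast between partners was not tested, and a partner that was not called is not shown to lack the difference. Of the 15 partners 8 had the opposite sign. The match was by symbol alone, so it also paired piga with pigb, and it counted foxb1a and foxb1b from each end. Some opposite signs rest on values near 0, such as -0.03 for sox9b and 0.05 for efnb3a. Among partners of the same sign, hoxc6a had a difference of -0.23 (-0.44 to -0.02) beside -0.53 for hoxc6b, and nt5c2a of -0.32 (-0.56 to -0.08) beside -0.49 for nt5c2b. The difference was 0.32 (0.12 to 0.51, not called) for cxcl12a beside 1.21 for cxcl12b, 0.36 (0.17 to 0.54, not called) for sp8b beside -0.78 for sp8a, and 0.31 (0.08 to 0.53, not called) for gli2b beside -0.60 for gli2a.

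Since the difference can equally be read as a change in the gap between the regions, the gap of the 55 genes was taken in each genotype. It was narrower in transgenic than in control pieces for 27 genes and wider for 28. For cxcl12b, Region 2 stood 0.22 below Region 1 in transgenic pieces and 1.43 below it in control pieces. For fgf3 the order turned over, with Region 2 above Region 1 by 0.85 in transgenic pieces and below it by 0.87 in control pieces. hnf1bb turned the other way, with a gap of -0.92 in transgenic pieces and 0.28 in control pieces. The gap of her3 widened to 2.90 in transgenic pieces, against 0.59 in control pieces, and that of osr1 to -2.02 in transgenic pieces, against -0.86 in control pieces. The gaps are levels on arrays whose medians differed between regions, which the difference itself does not carry.

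**Figure D5:**
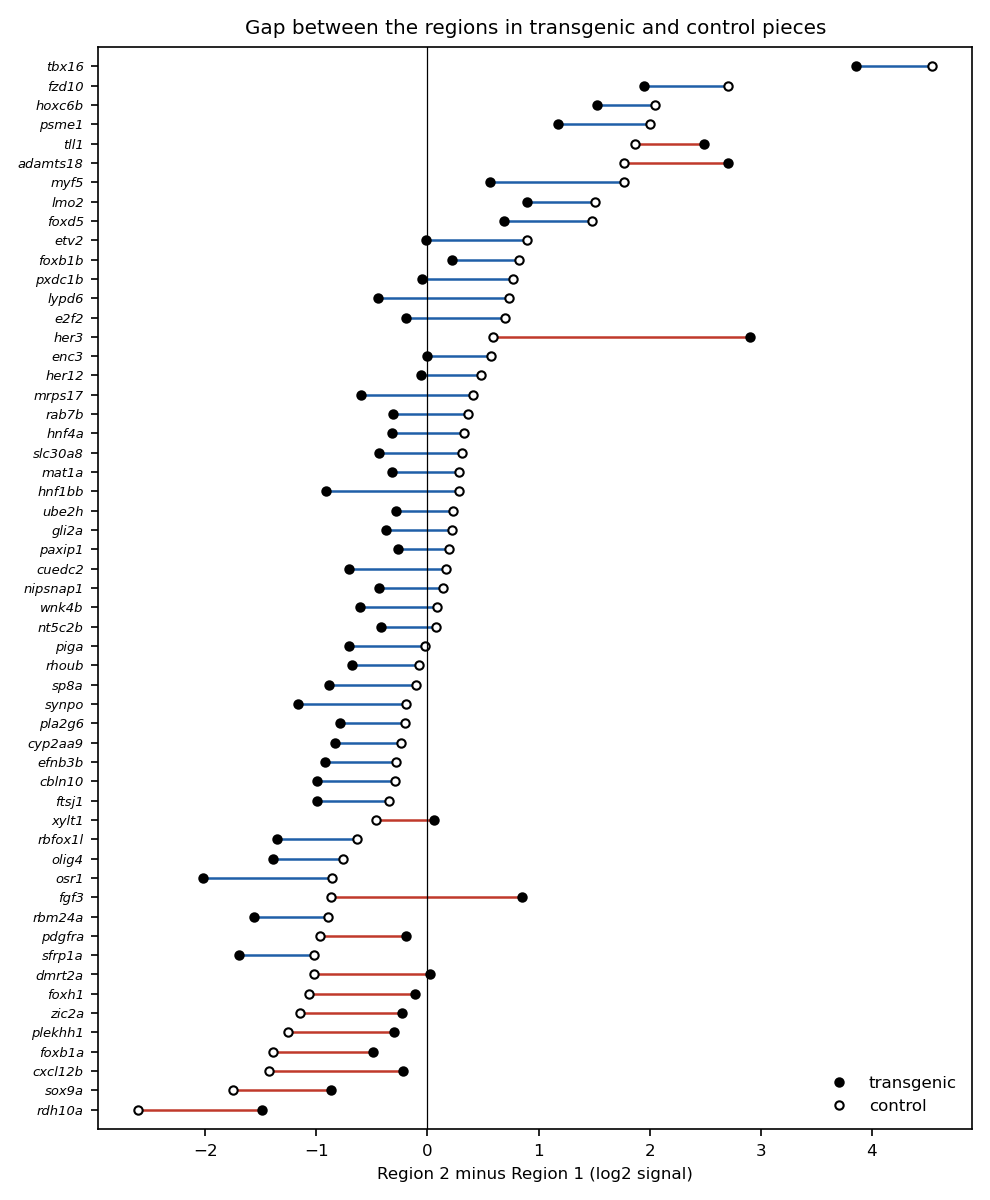
Mean log2 signal in Region 2 minus that in Region 1 for the 55 called genes, in transgenic pieces (filled) and in control pieces (open), ordered by the control gap. A red line runs to a higher gap in transgenic pieces and a blue line to a lower one, with the widest step for her3 (2.90 in transgenic and 0.59 in control pieces).

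A further 25 of the 11507 named genes with a control mean of 5 or less in either region had a called difference (0.217%), 10 above 0 and 15 below. In these an effect of 0 in 1 region can mean that the gene was already near background there. tbx1, a T-box gene of pharyngeal mesoderm, was at 3.01 to 3.20 in Region 2 transgenic and 3.30 to 3.47 in Region 2 control pieces, and at 6.03 to 6.04 in Region 1 transgenic and 7.83 to 7.84 in Region 1 control pieces. gbx2 and cyp26c1, of hindbrain patterning and of retinoic acid breakdown, fell by 1.62 and 1.71 in Region 1 and had control levels of 4.15 and 3.15 in Region 2. pcdh12, a protocadherin gene, fell by 2.54 in Region 1 with an effect of -0.19 in Region 2, where its control level was 4.11. The glutamate receptor gene grin2da, by contrast, fell by 2.18 in Region 2, against 0.52 in Region 1, where the control level was 4.88, and prdm12b fell by 1.71 in Region 2, from 4.89.

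A few of these moved in opposite directions at low to middling levels. si:dkey-26g8.5 was at 3.81, 4.04 and 4.44 in Region 2 transgenic pieces, against 5.69, 5.79 and 5.83 in control pieces. The Region 1 signals were 6.53, 6.69 and 6.38 in transgenic pieces, against 5.02, 4.81 and 4.71 in control pieces, and its difference of -3.36 (-3.83 to -2.90) was the widest among all called named genes. ctslb, a cathepsin L gene, showed the same order with a difference of -2.59. It has close copies in the zebrafish genome, so that its signal is uncertain, and it missed the control minimum by little (4.96 in Region 1). Among the selected genes that the paper checked by qPCR after overexpression, ctslb in Region 1 was the only one that failed the check. Its array rise of 1.06 in Region 1 is thus uncertain. In a separate qPCR after dmrt2a knockdown, the paper upheld fewer genes, namely foxj1b, pxdc1b, cxcl12b, etv2, cyp1a and foxc1b. wu:fa26c03 and zgc:174153 also fell in Region 2 and rose in Region 1, with differences of -2.71 and -2.78. Whether si:dkey-26g8.5, wu:fa26c03 and zgc:174153 share signal with ctslb was not tested, so they may not be separate responses. ppp2r3a, a regulatory subunit of protein phosphatase, rose by 0.70 in Region 2 and fell by 0.43 in Region 1. Just inside the control minimum stood psme1 (5.05), rdh10a (5.10) and pla2g6 (5.26), and just outside it ctslb, ssh2b (4.94) and rbp4l (4.89).

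Over all probe sets 144 differences were called (0.191%), 48 above 0 (0.0638%) and 96 below (0.128%), beside 1300 effects in Region 2 (1.73%) and 1181 in Region 1 (1.57%), and 6942 differences had an unadjusted p under 0.05. Which genes passed depended on every array: leaving out any 1 of the 12 left 20 to 30 of the 9013 genes called, and 16 of the 55, led by her3, myf5, fgf3, hnf1bb and dmrt2a, were called whichever array was left out. Of the 55 genes, 21 were called in 6 or more of these 12 fits. tbx16, hoxc6b, her12, lmo2, etv2 and sfrp1a were called in 2, 1, 0, 0, 1 and 1 of the 12 fits. Further examples are gli2a, pdgfra and hnf4a, called in 1 each, sox9a, called in 2, and osr1, sp8a, tll1 and foxb1b, called in 3 each. No gene changed sign in any of the fits. With genotype and replicate number as a block of 6 pools, 4 genes were called (her3, myf5, hnf1bb and cxcl12b), and whether pieces of a number came from the same embryos is not stated. For the effect within 1 region, with 3 arrays on each side, the smallest two-sided p an exact permutation test allows is 0.1, and no such p is printed. For the difference between the regions the limit depends on pairing, which is not settled. If pieces of a number were paired, 3 transgenic gaps between regions are set against 3 control gaps. The smallest p of such a test is again 0.1.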

How the data were processed

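Affymetrix Zebrafish Gene 1.1 ST arrays were hybridised with RNA of 12 pools. The authors made log2 signals for each probe set with Affymetrix Expression Console, and the deposited log2 values of 12 arrays were used as they stood. The method of probe summary and array normalisation was not given in the sources used here, and quantile normalisation and median centring of the deposited values were tried as alternatives. The number of arrays limits the precision, as each group held 3 pools, called biological replicates.

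Gene names came from the annotation of the platform, updated by gene identifier. Of 75212 probe sets, 43839 carried no symbol, 1845 several and 29528 a single one. Each gene was read from its brightest probe set, which gave 20520 named genes. Genes with near-identical copies can share signal. A linear model with 4 group means was fitted to all 12 arrays with lmFit and eBayes (limma 3.58.1, R 4.3.3), two-sided, with Benjamini-Hochberg adjustment over all probe sets. The difference between regions and the effect in each region came from this fit, and the procedure was tested on simulated data. Lists and members were chosen with earlier results of these data known, and the lists got no set test.

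Named by rule were, among called genes with both controls above 5, the 12 with the smallest adjusted p and the 12 with the largest difference in each direction, called genes of the qPCR list and up to 4 called genes per list, with dmrt2a and dmrt2b. Below the control minimum the 5 with the smallest adjusted p in each direction were named. Other genes were named after their values were seen. Alternatives changed the spread model, normalisation, replicate block, probe sets, control minimum, adjustment and arrays. No sequence or coordinate was used here.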

Additional observations from a re-analysis of the deposited data

Results flagged for a closer look

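Each gene given here was picked out because the test of the difference between the regions itself passed the threshold (limma, adjusted p under 0.05, 3 arrays in each of 4 groups). Values are the Region 2 effect minus the Region 1 effect on the log2 scale, and what accounts for them was not tested. With both controls above 5, the difference was above 0 for her3 (2.31), fgf3 (1.72), cxcl12b (1.21), rdh10a (1.11), dmrt2a (1.04), foxh1 (0.95), plekhh1 (0.95), adamts18 (0.93), zic2a (0.91), foxb1a (0.90), sox9a (0.88), pdgfra (0.78) and tll1 (0.62). Among transcription factors and their partners, the difference was below 0 for myf5 (-1.21), hnf1bb (-1.20), osr1 (-1.16), etv2, listed as etsrp (-0.92), e2f2 (-0.89), foxd5 (-0.80), sp8a (-0.78), tbx16 (-0.69), hnf4a (-0.64), lmo2 (-0.61), foxb1b (-0.60), gli2a (-0.60), her12 (-0.54) and hoxc6b (-0.53).

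Other genes below 0 were lypd6 (-1.18), mrps17 (-1.01), synpo (-0.97), cuedc2 (-0.87), psme1 (-0.82), pxdc1b (-0.82), fzd10 (-0.76), rbfox1l (-0.73), sfrp1a (-0.67), rbm24a (-0.67), ftsj1 (-0.65) and efnb3b (-0.64). With a control at 5 or less, the difference was above 0 for pcdh12 (2.35), gbx2 (1.83), tbx1 (1.49), cyp26c1 (1.24) and ppp2r3a (1.13), and below 0 for si:dkey-26g8.5 (-3.36), zgc:174153 (-2.78), wu:fa26c03 (-2.71), grin2da (-1.66) and prdm12b (-1.46).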

How the results depend on the processing

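The number of called differences depended on the spread model and on the features that entered the adjustment, and the causes were not tested beyond what each setting changes. Counts are given over all probe sets and then over genes with both controls above 5, beside 144 and 55. They were 423 and 207 with a trended and robust spread, 310 and 180 with an ordinary linear model, 649 and 349 with only probe sets of a mean above 5 in the fit, and 359 and 197 with only probe sets of 1 symbol. Adjustment over probe sets with both controls above 5 gave 130 genes, and a minimum difference of 1 gave 49 and 10. Leaving out 1 array gave 41 to 71 probe sets and 20 to 30 genes. For replicates 1, 2 and 3 in turn, the genes numbered 22, 26 and 30 without a Region 2 transgenic array, 24, 26 and 22 without a Region 2 control array, 26, 23 and 20 without a Region 1 transgenic array, and 22, 25 and 24 without a Region 1 control array. The Region 2 effect was called for 1300 probe sets and for 352 with its 6 arrays alone, and the Region 1 effect for 1181 and 381. Without 1 array they were 771 to 1128 in Region 2 and 590 to 1070 in Region 1. Quantile normalisation of the deposited values gave 56 genes and median centring 59, with 67.9% and 78% below 0 against 74.5%. The labels number the replicates alike. The paper says that embryos of its qPCR pools were cut in both regions, but does not say outright that array pieces of a number shared embryos. Deviations of same-numbered arrays correlated at -0.055 to 0.0787 over all pairs of groups and at 0.017 to 0.0787 between the regions of a genotype, where 10 of 12 arrays correlated best with their own number. Each array had 3 numbers to match there. The matches are not independent, since each correlation served both of its arrays, so 10 of 12 is given as a count only. No pair reached 0.1, but a small correlation does not settle whether the pieces were paired. The main fit took no account of a pairing, which remains unsettled. With the number as a replicate block 54 probe sets and 21 genes were called (10 above and 11 below 0), and with genotype and number as a block of 6 pools, 23 and 4. No named gene changed sign when an array was left out or in the 11 settings followed gene by gene, which leave out the other choices of probe set. Taking the median probe set of a gene kept 36 of the 55 genes, and the other probe sets of tbx16 and her3 had the opposite sign. Dim probe sets limit what can be seen, since a fall toward background is cut short.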
